A study of Mus musculus with 384 samples.

Results

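Treg cells of mouse ear skin with transcripts of Il1rl1 or Areg were compared with the Treg cells that had neither. The cells were chosen by their counts of these genes: a cell belonged to the class if it had at least 1 count of Il1rl1 or of Areg, and to the other cells if both were at 0. Of 202 kept single cells, 79 met this rule and 123 did not. A cell was kept if at least 500 genes and at least 10000 counts were detected in its well, which 202 of 348 single-cell wells did. Il1rl1 and Areg chose the class, so their values are given only as a description and they are left out of every test.

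Il1rl1 encodes ST2, the receptor chain that binds interleukin-33, an alarmin released by stressed epithelial and stromal cells. With its partner Il1rap it signals through Myd88 to NF-kappaB and MAP kinases. Areg encodes amphiregulin, a membrane-anchored ligand of the EGF receptor that is freed by proteases and supports repair of epithelium. In skin and other barrier tissues, ST2 and amphiregulin mark Treg cells with a tissue-repair programme, commonly with the transcription factor Gata3 and the lectin-like receptor Klrg1.

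Treg cells were sorted into plates from ears treated topically with 5% imiquimod, a Toll-like receptor agonist that provokes psoriasis-like inflammation, or with vehicle. The agent was given 3 times from day 0 and the cells were taken on day 3, from 2 mice per treatment. Vehicle plates 1 and 2 carry the title series VEH and VEH2, and imiquimod plates 1 and 2 carry IMQ and IMQ1, with 87 single cells, 4 wells of 10 cells and 5 empty wells each. The labels give no strain, age, sex or sort markers and do not tie a plate to a mouse, so that p-values measure the spread between plates, which may be technical.

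The kept cells of the class numbered 30, 26, 9 and 14 on vehicle plates 1 and 2 and imiquimod plates 1 and 2, in this order, and the other cells 32, 32, 29 and 30. Sums of counts over the cells of a class on a plate lay between 19325564 and 67851284. No 2 kept wells held identical counts. Transcripts of the labelled cell type were present: at least 1 of the T cell genes Cd3e, Cd3d, Cd3g, Tcra, Tcrb, Cd2, Cd5, Lck and Lat was counted in 75 of 79 cells of the class and in 113 of 123 other cells, and Foxp3 in 45.6% and 31.7%.

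Il1rl1 was counted in 55 cells and Areg in 41, with both in 17, Il1rl1 alone in 38 and Areg alone in 24. Within the cells that had a count, Il1rl1 ranged from 0.725 to 25271 CPM (counts scaled to a common library total) with a median of 1022, and Areg from 0.705 to 11956 CPM with a median of 485. Areg was counted in 17 of 55 cells with Il1rl1 (30.9%) and in 24 of 147 cells without it (16.3%). At the edge of the rule, 11 cells of the class had only 1 or 2 counts of the pair, between 0.705 and 7.40 CPM, while the next cell inside had 15.1 CPM and all cells outside had 0. In the 20 empty wells Il1rl1 had no count, which allows a share of up to 15% if each well could show one. Several hardly could: the 5 on vehicle plate 1 held 61 to 355 counts, and the lowest on each other plate held 0. Areg had counts in 1 empty well. That well held 1527760 counts and 885 genes, and 819 counts of Areg.

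**Figure D1:**
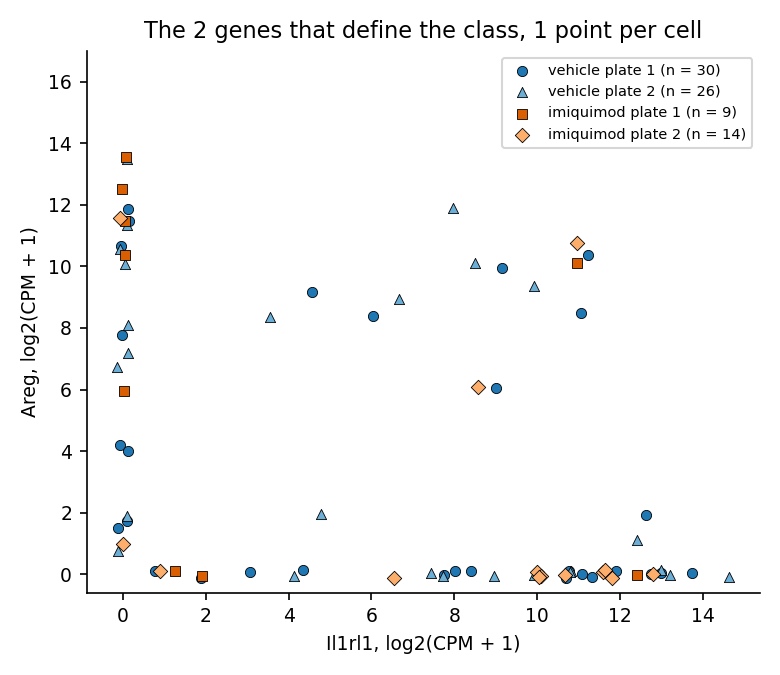
Level of Areg against that of Il1rl1, both as log2(CPM + 1), in each of the 79 cells of the class, with symbols for the plate and a small sideways scatter for cells at 0. Most cells lie on an axis: 38 had Il1rl1 alone, 24 had Areg alone and 17 lie off both axes.

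The class made up 48.4% of kept cells on vehicle plate 1 (exact binomial 95% interval 35.5% to 61.4%) and 44.8% on vehicle plate 2 (31.7% to 58.5%). On imiquimod plates 1 and 2 it made up 23.7% (11.4% to 40.2%) and 31.8% (18.6% to 47.6%). Both imiquimod plates lay below both vehicle plates, with means of 27.8% ± 5.75 and 46.6% ± 2.52 (SD, n = 2 plates each). The difference of -18.9 percentage points had an exact two-sided permutation p of 0.33, the smallest that 2 plates against 2 can give. With each cell thinned to 400000 counts, the share was 51.0%, 45.5%, 18.8% and 27.3% in the order above. The intervals cover counting error only.

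Cells of the class had more genes detected than the other cells on every plate. The median, not counting Il1rl1 and Areg, was 1830 genes against 766.5 on vehicle plate 1, 1955 against 1415.5 on vehicle plate 2, 1256 against 780 on imiquimod plate 1 and 1442.5 against 1074.5 on imiquimod plate 2. The 2 classes overlapped widely on each plate, and the ratio of medians lay between 1.34 and 2.39. On the log2 scale the ratio averaged 0.71 ± 0.38 (SD, n = 4 plates), with an exact two-sided sign-flip p of 0.13, the smallest that 4 plates allow. Thinned to 400000 counts per cell, the medians were 1387 against 617, 1299 against 863.5, 706.5 against 594.5 and 1073.5 against 573, and the class was again higher on 4 of 4 plates.

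Total counts per cell were less even. Their medians were 1515070.5 against 646369.5, 1620133.5 against 1014108.5, 1176034 against 1182816 and 2538994.5 against 2145606.5 on the same plates, higher in the class on 3 of 4, with a mean log2 ratio of 0.53 ± 0.54 (SD) and an exact sign-flip p of 0.25. The part of detection in who meets the rule was not tested. Of the 146 single-cell wells that were not kept, with a median of 263 genes, 8 (5.48%) had a count of either gene. Comparisons below are also given for 60 pairs of cells matched within a plate on the number of genes detected, 18, 20, 9 and 13 pairs on the 4 plates, with median genes of 1062.5 against 1038, 1689 against 1641.5, 1256 against 1383 and 1382 against 1355.

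**Figure D2:**
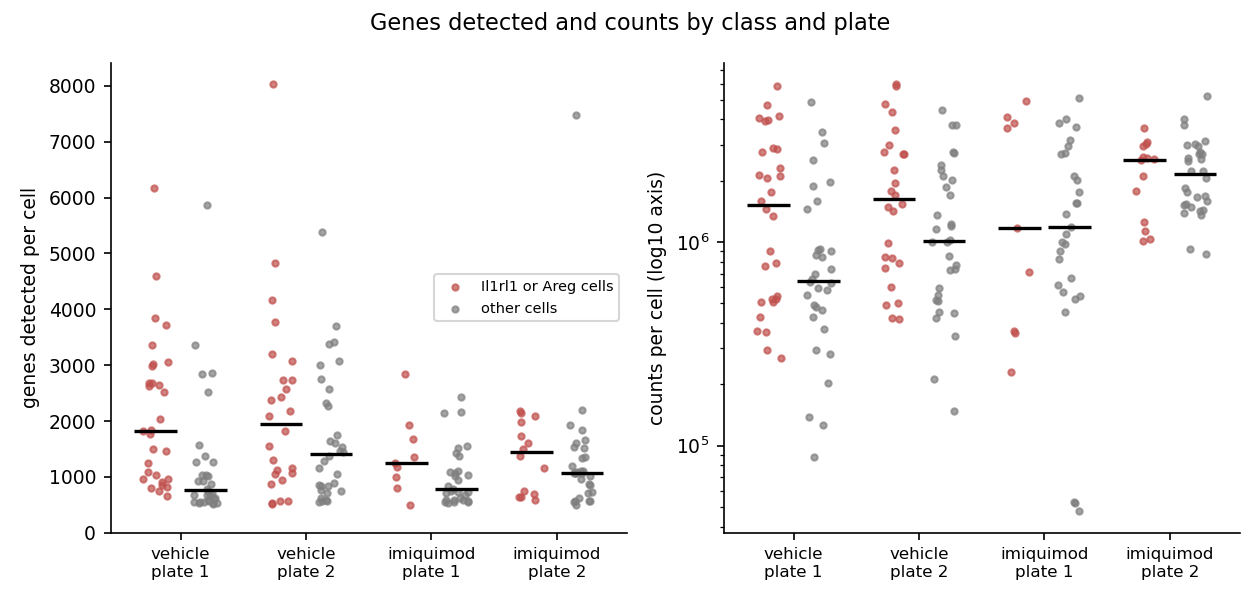
Genes detected per cell (left) and counts per cell on a log10 axis (right) for each kept cell, by class and plate, with a bar at the median. The class has the higher median number of genes on each of the 4 plates, and the higher median count on all but imiquimod plate 1.

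In the sums of counts edgeR called no gene, and DESeq2 called many. edgeR's quasi-likelihood test, with the plate as a block, called 0 of 8911 genes at an adjusted p under 0.05 (0% called), with 62 higher and 75 lower at an unadjusted p under 0.05. The lowest adjusted p came to 1. In the paired cells it called 0 of 6176 genes (0% called), with 73 higher and 52 lower at an unadjusted p under 0.05. DESeq2 on the same sums called 524 genes higher and 767 lower (14.5% of genes), and 465 higher and 456 lower in the paired cells (14.9%). In 47.9% of the genes that DESeq2 called higher, a single cell held over 50% of the counts of the class. The same held for 51.6% of those called lower, in the other cells, and for 41.4% and 51.2% of all tested genes of either sign. The spread between sums was large, which leaves edgeR little power, and its count of 0 does not show that the classes are alike: edgeR's common dispersion was 3.36 over all kept cells.

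A mean of log2(CPM + 1) per cell weighs every cell alike and is little moved by 1 cell of high level. On this scale limma called 2 of 8911 genes (0.0224% called), both higher in the class. Dusp1, a phosphatase that switches off MAP kinases, had a mean difference of 4.34 ± 0.78 (SE) with an adjusted p of 0.00313. Gm26849, a predicted gene, had 2.82 ± 0.60 with an adjusted p of 0.0449. Positive differences were common on this scale: 74.1% of all tested genes were positive, 13.5% were higher on 4 of 4 plates and 2.3% were lower on 4 of 4. In the paired cells the shares were smaller, with 57.1% positive, 6.93% higher on 4 of 4 plates and 3.51% lower, and limma called no gene there at 318 genes of unadjusted p under 0.05. These shares are the background for the counts of genes below, where "paired cells" are those matched on genes detected.

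Dusp1 in the paired cells had mean log2(CPM + 1) of 4.30, 5.75, 9.15 and 9.63 in the class, in the plate order above, and 2.26, 2.44, 2.41 and 3.34 in the other cells. The lowest value of the class lay above the highest of the other cells. The difference was 4.60 ± 0.94 with a limma adjusted p of 0.249, and Dusp1 was counted in 50.0%, 60.0%, 88.9% and 76.9% of the class and 33.3%, 35.0%, 44.4% and 38.5% of the other cells. The summed CPM of the paired cells went the other way on vehicle plate 1, with 908 against 2254, and gave an edgeR log2 fold change of 1.68 ± 0.68 (adjusted p = 1). Over all kept cells the sums gave 0.43 ± 0.46 (edgeR adjusted p = 1), with the class higher on 2 of 4 plates. Leaving out imiquimod plate 2 ended the limma call over all kept cells, as no gene then passed.

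Gm26849 was counted in 44.4%, 55.0%, 33.3% and 38.5% of the paired class cells and 11.1%, 25.0%, 11.1% and 7.69% of the others, and was the higher on 4 of 4 plates. It had no count in the 20 empty wells, and its difference in mean log2(CPM + 1) was 2.85 ± 0.63 in paired cells (limma adjusted p = 0.329). Both genes were chosen after their values were seen, and Dusp1 also stands on the list of immediate early genes. After thinning each cell to 400000 counts and setting the classes anew, limma called 19 of 7217 genes, all higher in the class. The thinned fit was chosen after seeing the data. In it 74.7% of all genes were positive, and the class still had the higher median of genes detected on 4 of 4 plates. In paired cells limma called none of 6176 genes. Besides Dusp1 and Gm26849, the 19 genes called after thinning were Lmna, Shisa5, Il7r, Srgn, Cd6, Eef1a1, Ly6e, Klrg1, Nfkbia, H2-D1, Tnfrsf4, Vim, Tnfrsf1b, Coro1a, Rel, Camk4 and COX1. They include Il7r, a chain of the receptor for interleukin-7, at 3.07 ± 0.68 (adjusted p = 0.0108), Tnfrsf4 at 3.43 ± 0.84 (adjusted p = 0.0259) and Klrg1 at 2.64 ± 0.65 (adjusted p = 0.0259).

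**Figure D3:**
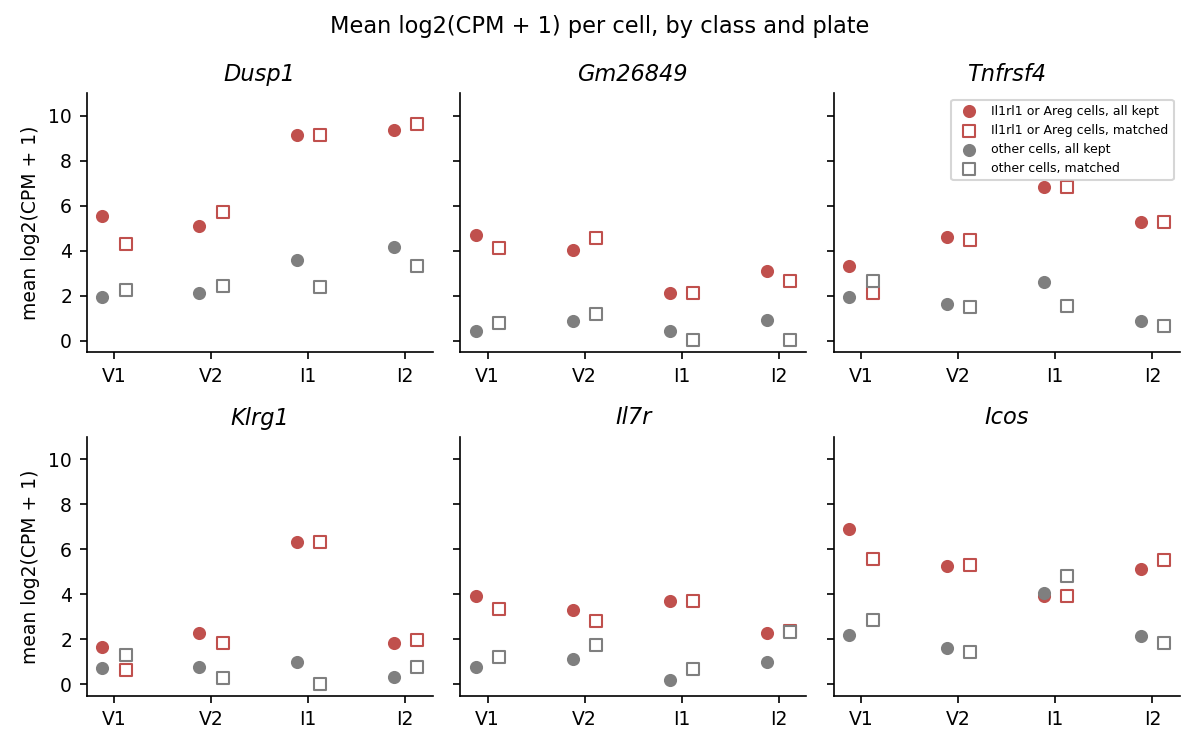
Mean log2(CPM + 1) per cell of 6 genes by class and plate (V1 and V2, vehicle plates; I1 and I2, imiquimod plates), for all kept cells (filled circles) and for cells matched on genes detected (open squares). Dusp1 and Gm26849 separate the classes on each plate, and Il7r is higher in the class on each plate, by little on I2 in the matched cells, while Klrg1, Tnfrsf4 and Icos are each reversed on 1 plate there.

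Gata3 and Klrg1 are the markers commonly found with ST2, and edgeR called neither. DESeq2 called Klrg1 over all kept and in paired cells (adjusted p = 0.0254 and 0.0458). In thinned cells limma called Klrg1 (adjusted p = 0.0259), but not in paired cells (adjusted p = 0.897). Gata3 was called in none of these fits. Gata3 is a transcription factor that type 2 lymphocytes and tissue Treg cells share. Gata3 was counted in 54.4% of the class and 37.4% of the other cells over all kept cells. In paired cells its shares were 50.0%, 45.0%, 55.6% and 53.8% against 55.6%, 35.0%, 33.3% and 53.8%, higher in the class on 2 plates, lower on 1 and equal on 1. Its summed level was 514, 678, 2418 and 1248 TMM-normalised CPM in the class and 752, 286, 2729 and 602 in the other cells, with a log2 fold change of 0.39 ± 0.71 (SE, edgeR adjusted p = 1) and 0.45 ± 1.09 in paired cells. By plate, the share of cells with Gata3 was higher in the class on 4 of 4 plates over all kept cells, by 16.1 ± 8.91 percentage points (SD, exact sign-flip p of 0.13, the smallest possible), by 15.6 ± 8.81 in thinned cells and by 6.67 ± 12.2 in paired cells. Summed CPM over all kept cells was higher on 2 of 4 plates, so that no order is read from these shares.

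Klrg1, an inhibitory receptor of terminally differentiated T cells, was counted in 30.4% of the class and 9.76% of the other cells. Its summed levels were 139.9, 263, 2465 and 339 CPM in the class and 289, 34.1, 422 and 22.8 CPM in the other cells, higher in the class on 3 of 4 plates. The log2 fold change was 2.29 ± 1.45 (edgeR adjusted p = 1), and the shares in paired cells were 11.1%, 30.0%, 55.6% and 23.1% against 22.2%, 5.00%, 0% and 15.4%. In paired cells the share and the level on vehicle plate 1 both ran against the other plates. In the class on imiquimod plate 1, a single cell held 53.9% of the Klrg1 counts, and on imiquimod plate 2 it held 91.1%.

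Most genes of the Treg core list were positive in the class on the mean log2 scale. edgeR called none of them. Of 19 tested genes over all kept cells DESeq2 called 2 higher and 2 lower, beside 14.5% of all genes. Of 17 in paired cells it called 1 higher and 2 lower, beside 14.9%. On thinned cells limma called Tnfrsf4, and in paired cells it called none. Foxp3, the factor that defines the lineage, was not higher in the class throughout in paired cells. It was counted in 33.3%, 55.0%, 11.1% and 46.2% of the class and 44.4%, 25.0%, 55.6% and 7.69% of the other cells. By plate it was higher on 2 and lower on 2. Its summed log2 fold change was -1.14 ± 1.07 over all kept cells (edgeR adjusted p = 1) and 0.0009 in paired cells. Il2ra, the high-affinity interleukin-2 receptor chain CD25, was counted in 66.7%, 75.0%, 44.4% and 46.2% against 55.6%, 35.0%, 22.2% and 38.5%, higher on 4 of 4 plates. Ikzf2, the transcription factor Helios, was counted in 72.2%, 75.0%, 33.3% and 92.3% against 55.6%, 55.0%, 22.2% and 53.8%, also higher on 4 of 4. Their mean differences of 20.3 ± 14.6 and 21.6 ± 11.8 percentage points (SD, n = 4 plates) each had an exact sign-flip p of 0.13, the smallest possible. Summed CPM in paired cells was higher in the class on 4 of 4 plates for both, but over all kept cells Ikzf2 was lower on vehicle plate 1 and imiquimod plate 1, so that no order is read from its share there. In the sums Il2ra had a log2 fold change of 1.27 ± 0.67 and Ikzf2 0.74 ± 0.46 in paired cells (edgeR adjusted p = 1 for both).

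Lrrc32, which encodes GARP, the receptor that tethers latent TGF-beta to the Treg surface, had counts in few of the other cells. It was counted in 15 of 79 class cells and in 1 of 123 other cells, and in paired cells in 16.7%, 10.0%, 11.1% and 30.8% of the class and in none of the 60 other cells, which allows a share of up to 5.00%. Its summed levels were 146, 52.6, 358 and 269 CPM in the class and 0, 0, 0 and 11.8 CPM in the other cells, without overlap. The edgeR log2 fold change was positive with an adjusted p of 1 and an unadjusted p of 0.0137. Its size is not given because 3 sums were at 0. DESeq2 called Lrrc32 over all kept and in paired cells (adjusted p = 1.09e-08 and 4.73e-08). With sums of the other cells at or near 0, Lrrc32 passed the expression filter through the class alone, so that these calls are no support. Lrrc32 was named after its values were seen, from a list of 20 Treg genes.

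Of the Treg core list, which also holds Ctla4, Icos, Tigit, Tnfrsf4, Tnfrsf18, Nrp1 and Itgae, 13 of 17 genes tested in paired cells were positive on the mean log2 scale, with a median of 1.10 against 0.07 for all 6176 genes. On 4 of 4 plates 4 of these genes were higher and 0 were lower, 23.5% beside the background of 6.93%. edgeR called none of them in either fit. The costimulatory receptor Icos was counted in 55.6%, 60.0%, 44.4% and 46.2% of paired class cells and 27.8%, 25.0%, 44.4% and 30.8% of the others, equal on imiquimod plate 1 and higher on 3 plates. Ctla4, the inhibitory receptor that strips costimulatory ligands from antigen-presenting cells, had 33.3%, 45.0%, 33.3% and 38.5% against 27.8%, 25.0%, 33.3% and 15.4%, and Tigit, an inhibitory receptor for CD155, 16.7%, 35.0%, 33.3% and 23.1% against 16.7%, 5.00%, 22.2% and 15.4%. Some members pointed the other way: the ectoenzymes Nt5e and Entpd1 were counted in 9 and 3 of 60 paired class cells against 15 and 7 of 60 others, and Izumo1r, folate receptor 4, in 0 against 4.

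**Figure D4:**
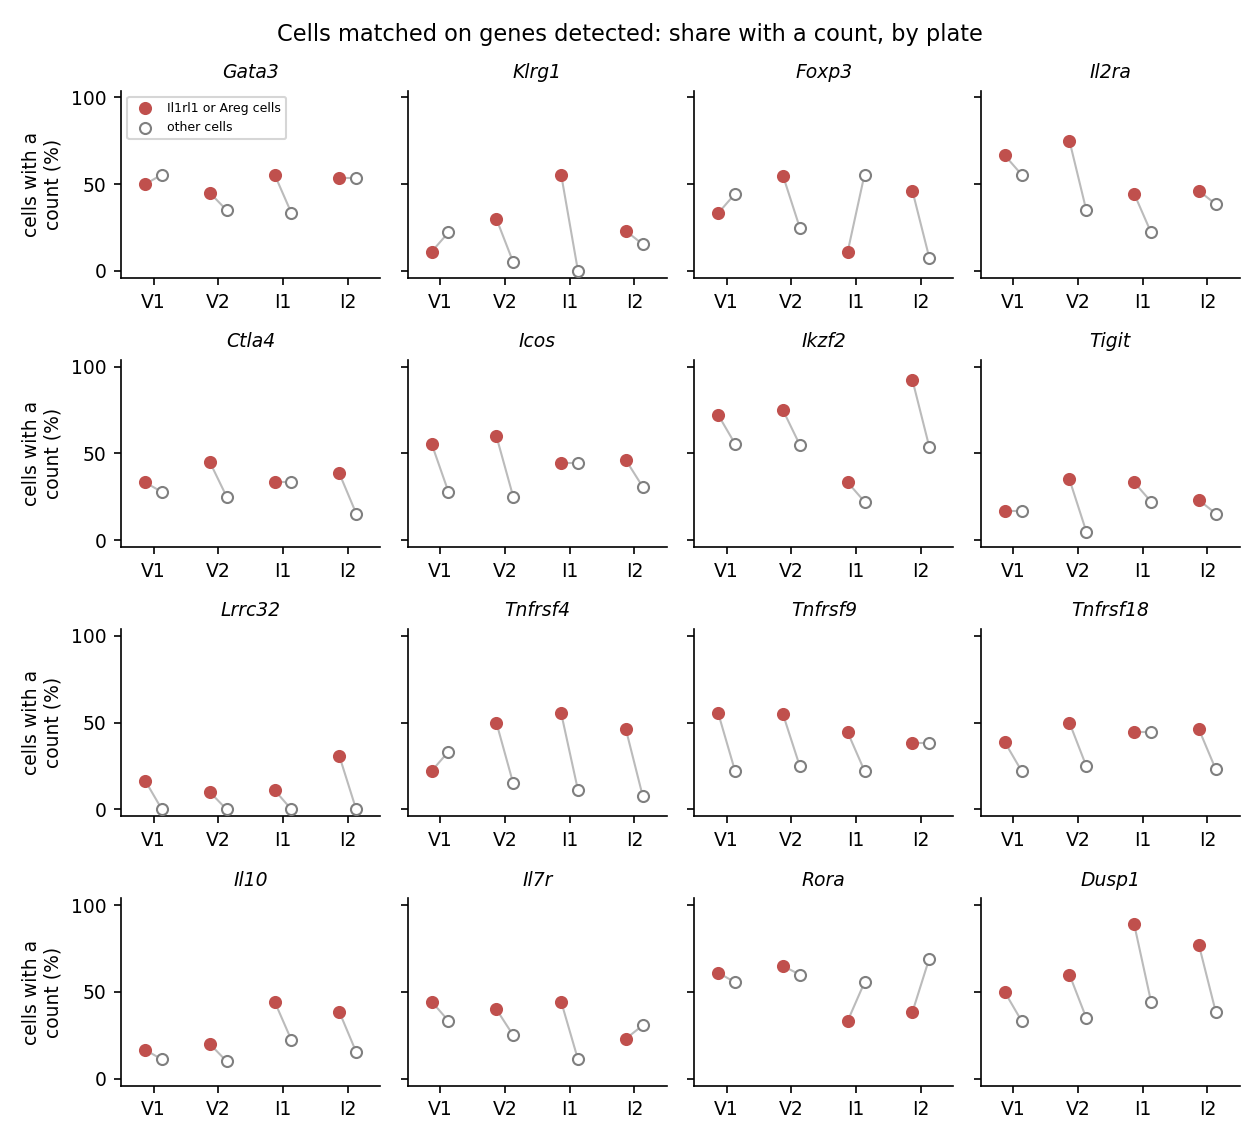
Share of cells with at least 1 count of 16 genes in cells matched on genes detected, by class (filled, Il1rl1 or Areg cells; open, other cells) and plate (V1 and V2, vehicle; I1 and I2, imiquimod), with a line joining the 2 classes of a plate. Il2ra, Ikzf2, Lrrc32, Il10 and Dusp1 are higher in the class on each plate, Foxp3, Klrg1, Tnfrsf4, Gata3 and Il7r are reversed on at least 1, and Rora lies higher on the vehicle plates and lower on the imiquimod plates.

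Receptors of the TNF family carry costimulatory signals in tissue Treg cells. Over all plates edgeR called none of the 4 given here. On thinned cells limma called Tnfrsf4 and Tnfrsf1b (adjusted p = 0.0259 for both), and in paired cells it called none of the 4. DESeq2 called Tnfrsf1b alone (adjusted p = 0.00241 over all kept and 0.00405 in paired cells). Tnfrsf4, OX40, was counted in 46.8% against 17.1% of all kept cells. In paired cells the shares were 22.2%, 50.0%, 55.6% and 46.2% against 33.3%, 15.0%, 11.1% and 7.69%, so that vehicle plate 1 was reversed. Its difference in mean log2(CPM + 1) was 3.25 ± 0.76 over all kept cells (limma adjusted p = 0.0533) and 3.09 ± 0.90 in paired cells (adjusted p = 0.897). Tnfrsf9, 4-1BB, had 55.6%, 55.0%, 44.4% and 38.5% against 22.2%, 25.0%, 22.2% and 38.5%, and Tnfrsf18, GITR, 38.9%, 50.0%, 44.4% and 46.2% against 22.2%, 25.0%, 44.4% and 23.1%. Each was equal on 1 imiquimod plate and higher on the other 3 plates. The summed CPM of Tnfrsf9 was lower in the class on both imiquimod plates and that of Tnfrsf18 on imiquimod plate 1, so that no order is read from their shares on those plates.

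Tnfrsf1b, the receptor TNFR2, had the smallest p of these 4 receptors in the sums. Its levels were 1029, 2087, 3207 and 1689 CPM in the class and 448, 514, 1232 and 645 CPM in the other cells, higher on 4 of 4 plates, with overlap between plates. The log2 fold change was 1.50 ± 0.62 (edgeR adjusted p = 1, unadjusted p = 0.0236) and 2.10 ± 0.88 in paired cells. Without imiquimod plate 1, which held 9 cells of the class, limma on the mean log2 scale called 22 of 8911 genes over all kept cells. Tnfrsf1b, Tnfrsf4, Tnfrsf18, Icos, Il2ra and Ikzf2 were among them. In that fit 74.1% of all genes were positive.

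The tissue-repair list of 50 genes joins transcription factors, chemokine receptors and effector molecules reported for such Treg cells. In paired cells 32 of 40 tested genes were positive on the mean log2 scale, with a median of 0.97 beside 0.07 for all genes, and 8 were higher on 4 of 4 plates while 0 were lower. That is 20.0% beside the background of 6.93%. In the sums edgeR called none, with 25 of 45 positive and a log2 fold change whose median was 0.07 beside -0.40 for all genes. DESeq2 called 3 of these 45 higher and 5 lower, beside 14.5% of all genes. Of the 40 in paired cells it called 5 higher and 3 lower, beside 14.9%. Il10, an inhibitory cytokine of effector Treg cells, was counted in 16.7%, 20.0%, 44.4% and 38.5% of paired class cells and 11.1%, 10.0%, 22.2% and 15.4% of the others, higher on 4 of 4 plates, although its summed CPM was lower on vehicle plate 1 (377 against 1262). Batf, a factor needed for tissue Treg differentiation, was counted in 31.6% against 16.3% of all kept cells, the chemokine receptor Ccr8 in 22.8% against 5.69% and the factor Maf in 26.6% against 9.76%. Their edgeR log2 fold changes were -0.29 ± 1.39, -0.70 ± 2.11 and -0.51 ± 4.25 (adjusted p = 1 for each). Since these levels go against the shares, no order is read from the shares of Batf, Ccr8 and Maf.

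Rora, a nuclear receptor found in skin Treg cells, had opposite signs in the 2 treatments, a difference that did not pass the adjusted test. Its summed levels were 4318, 2134, 50.5 and 325 CPM in the class and 1842, 722, 2879 and 2202 CPM in the other cells. The class was higher on both vehicle plates and lower on both imiquimod plates, with log2 fold changes of 1.40 ± 0.86 in vehicle and -4.30 ± 1.03 in imiquimod. The difference between them had an unadjusted p of 0.00012 and an edgeR adjusted p of 0.232, the smallest of that test. Shares in paired cells took the same directions, with 61.1%, 65.0%, 33.3% and 38.5% against 55.6%, 60.0%, 55.6% and 69.2%. On imiquimod plates 1 and 2 a single class cell held 77.1% and 88.7% of the Rora counts.

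Over all genes, the test of the class by treatment called 0 of 8911 genes in edgeR (0% called), with 24 more positive and 348 more negative in imiquimod at an unadjusted p under 0.05, while DESeq2 called 368 and 1465 (20.6% of genes). The sign of Rora was that of most genes. In edgeR the median of the interaction was -3.0 on the log2 scale with TMM scaling and -2.36 with relative log expression (RLE) scaling. Under TMM 29.8% of genes were positive, and under RLE 35.1%. The DESeq2 fit had a median of -1.90 and 37.2% positive. Without imiquimod plate 1, imiquimod plate 2 or vehicle plate 2 edgeR called 28, 113 and 1 genes. In each of these fits 1 treatment has a single plate, which is assumed to vary like the plates of the other, so that these calls are no support for a difference in Rora or any other gene. Among the other 20 genes with a value that were named whatever their level, the unadjusted p of this difference was lowest for Ctla4, at 0.0988. Penk, the gene of the enkephalin precursor named in the study's title, had few counts in either class. It was counted in 3.80% against 6.50% of all kept cells, at no more than 7.12 CPM in any sum. At these low levels DESeq2 called Penk lower in the class over all kept and in paired cells (adjusted p = 0.00276 and 0.0108).

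The pathway downstream of ST2 was sampled with 29 genes. The receptor partner Il1rap was counted in 10 of 79 class cells and 9 of 123 other cells, and in 6 against 8 of 60 in paired cells. The adaptor Myd88 was counted in 4 and 2 cells, below the level at which it was tested. The kinases Irak1 and Irak4 and the ligase Traf6 were likewise rare, in 3, 1 and 5 paired class cells against 4, 3 and 8 others. Irak2 was more frequent, in 21 against 14. Il1rap was called in no fit over all kept cells, and in paired cells it was below the level for testing. No difference is read for Il1rap, Myd88 or the other rare genes, since so few counts could hardly show one.

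Several targets and inhibitors of NF-kappaB had counts in more cells of the class than of the others. edgeR called none of them. On thinned cells limma called Nfkbia (adjusted p = 0.0259) and Rel (adjusted p = 0.0273), and in paired cells it called none. In the 60 pairs Nfkbia, the inhibitor of NF-kappaB that the pathway itself induces, was counted in 37 class cells against 29 others. Nfkbib had 16 against 4, Nfkbiz 21 against 12 and the deubiquitinase Tnfaip3 34 against 22. The subunit Rel had 31 against 16 and Relb 18 against 10, while Rela and Nfkb1 had equal numbers, 29 and 32 in both classes. Of the tested list 14 of 19 were positive on the mean log2 scale in paired cells, with a median of 0.58 beside 0.07, and 5 were higher on 4 of 4 plates, 26.3% beside 6.93%. edgeR called none in either fit. Of 25 tested genes over all kept cells DESeq2 called 1 higher and 4 lower, beside 14.5% of all genes. Of the 19 in pairs it called 6 higher and 0 lower, beside 14.9%. Nfkbia had a log2 fold change of 0.68 ± 0.45 in the sums (adjusted p = 1) and lay higher in the class on 4 of 4 plates, but in pairs vehicle plate 1 was reversed (1545 against 3032 CPM).

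Immediate early genes, transcribed within minutes of a stimulus and also of cell handling, were mostly positive in the class, and Dusp1 is one of them. Of the list 17 of 18 tested genes were positive on the mean log2 scale in paired cells, with a median of 0.52, and 2 were higher on 4 of 4 plates (11.1% beside 6.93%). Fos, a subunit of AP-1, was counted in 27.8%, 35.0%, 44.4% and 46.2% against 27.8%, 20.0%, 22.2% and 15.4%, and its difference of 1.86 ± 0.77 had an adjusted p of 0.897 (limma). Junb, its partner, had 72.2%, 75.0%, 66.7% and 69.2% against 61.1%, 70.0%, 55.6% and 69.2%. Nr4a1, induced by T cell receptor signals, had a difference of 1.29 ± 0.85. How far handling of the cells moved with these genes was not tested.

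Other members of amphiregulin's pathway were scarce. Of the EGF family ligands, Hbegf, Tgfa, Ereg, Btc, Egf and Epgn were counted in 0 to 4 of 79 class cells and 1 to 5 of 123 other cells. The receptors Egfr and Erbb2 were counted in 2 and 5 class cells and 5 and 2 others, at or below 55.9 CPM in either class. The sheddase Adam10 was counted in 20 against 13 cells and Adam17, the main protease that frees amphiregulin, in 11 against 6. Furin, which activates such proteases, was counted in 25 against 28. 2 of 5 tested genes of the list were positive on the mean log2 scale in paired cells, with a median of -0.10, and none was called.

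Interleukins of the type 2 response were almost without counts: Il5 and Il9 had none in any kept cell, and Il4 and Il13 were in 2 and 0 class cells and in 1 other cell each. A count of 0 in 79 cells allows a share of up to 3.80%. Receptors and transducers of these cytokines were present. Il4ra, a chain of the interleukin-4 receptor, was counted in 30 against 24 cells, Stat6 in 20 against 10 and Stat5b, which relays interleukin-2, in 25 against 21. Of the tested list 5 of 6 were positive on the mean log2 scale in paired cells (median 0.67), and 3, Il4ra and Stat5b among them, were higher on 4 of 4 plates. That is 50% beside the background of 6.93%. By share of paired cells Il4ra was higher on 2 plates and Stat5b on 3, and neither was lower on any. edgeR called none of the list. DESeq2 called 1 of 6 higher over all kept cells, beside 14.5% of all genes, and 2 of 6 higher in paired cells, beside 14.9%. Cish, an inhibitor that STAT5 induces, was counted in 34.2% against 11.4% of all kept cells, with a log2 fold change of 2.83 ± 1.38 (edgeR adjusted p = 1). Its shares in paired cells were 33.3%, 30.0%, 33.3% and 30.8% against 5.56%, 30.0%, 22.2% and 7.69%. DESeq2 called Cish over all kept cells (adjusted p = 0.00697) and not in paired cells.

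Il7r, which group 2 innate lymphoid cells (ILC2) and many T cells express, was counted in 44.3% against 14.6% of all kept cells. Its summed levels were 654, 703, 1134 and 487 CPM in the class and 74.6, 153, 10.6 and 209.8 CPM in the other cells, and every value of the class lay above every value of the others. The log2 fold change was 3.09 ± 1.54 (edgeR adjusted p = 1) and 2.77 ± 1.83 in paired cells. DESeq2 called Il7r over all kept cells (adjusted p = 0.0227) and not in paired cells. Kit, which ILC2 and mast cells share, was counted in 29.1% against 9.76%, almost wholly on the vehicle plates. The markers that define ILC2 were rare: Il5 was at 0, and Il13, Ptgdr2, Il17rb, Hpgds, Calca and Arg1 were in 0 to 3 class cells and in 0 to 2 others. The 9 ILC2 genes summed to 470.3 to 1356 CPM in the class and 59.3 to 625 CPM in the other cells, of which Il7r and Kit held the most, and their part in the other results was not tested.

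Genes of mast cells and basophils, which can also express Il1rl1, had few counts apart from Kit. Fcer1a, Ms4a2, Mcpt4, Tpsb2, Cma1, Gata2 and Mcpt8 had no count in any kept cell, Cpa3 was in 2 cells of either class, and Hdc was in 21 class cells and 25 others at under 1 CPM. With Kit, the mast cell list summed to 0.191 to 433 CPM in the class and 0.792 to 28.8 CPM in the other cells, and of the basophil list 0.255 to 31.5 and 0.295 to 0.771 CPM. Of the other sets of markers, those of fibroblasts summed to 9.94 to 299.7 and 164 to 412 CPM, of endothelial cells to 0 to 681 and 1.58 to 424, of keratinocytes to 2.55 to 18.4 and 0.0208 to 575, of macrophages and monocytes to 0 to 405 and 5.16 to 45.0, and of dendritic and Langerhans cells to 176 to 1042 and 173 to 804. Neutrophil genes reached 41.2 to 566 and 0 to 191, B cell genes 0 to 10.9 and 3.04 to 38.8, CD8 T and NK cell genes 2.43 to 483 and 0.0590 to 460.4, and gamma delta T cell genes 0.0319 to 0.276 and 0.0417 to 125. Genes of melanocytes and Schwann cells reached 20.9 to 138 and 46.2 to 188, and haemoglobin and other erythroid genes 0.652 to 1080.2 and 4.70 to 1851 CPM. The ranges of the classes over plates overlapped for each of these. In paired cells, mast cell genes were counted in 29 of 60 class cells and 18 of 60 others. Fibroblast genes were in 11 against 5, erythroid genes in 24 against 14, and melanocyte and Schwann cell genes in 18 against 12. Macrophage and monocyte, endothelial, CD8 T and NK, gamma delta T and B cell genes were in fewer class cells than others, the first in 20 against 27. The part of such cells in the other results was not tested.

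The remaining lists are given by their tested genes in paired cells on the mean log2 scale, where 57.1% of all genes were positive and the median was 0.07. Genes of the T cell receptor complex and its signalling had 19 of 22 positive (median 0.43), and the T cell markers 8 of 9 (median 0.20). Type 1 genes had 4 of 6 positive (median 0.60) and type 17 genes had 8 of 10 (median 0.16). Genes of naive and recirculating T cells had 6 of 10 positive (median 0.12). Interferon-response genes had 8 of 12 positive (median 0.39), and MHC class I genes had 10 of 14 (median 0.29). Heat shock genes had 6 of 8 positive (median 0.26), survival genes had 9 of 12 (median 0.19), proliferation genes had 4 of 7 (median 0.18) and glycolytic genes had 7 of 12 (median 0.14). Among genes that follow the amount or state of RNA in a well, the ribosomal proteins had 24 of 28 positive (median 0.48) and the mitochondrially encoded genes 6 of 6 (median 1.22). Their part in the Treg results was not tested, and edgeR called no gene of any list.

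**Figure D5:**
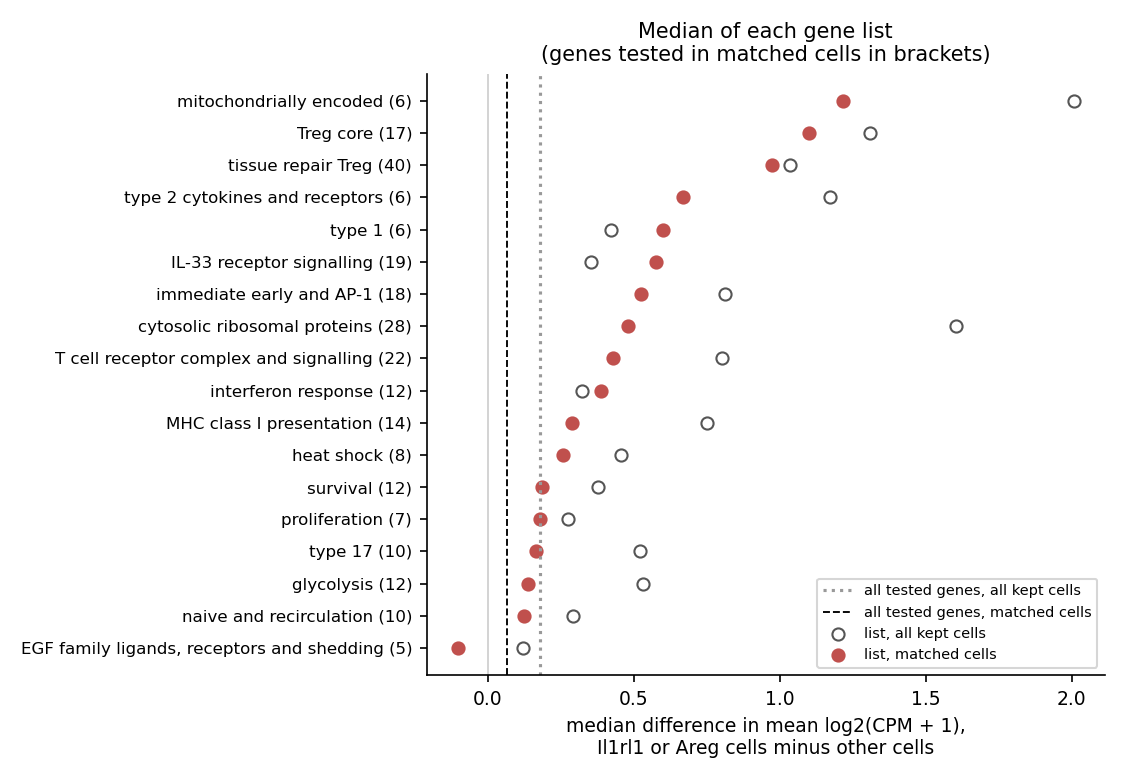
Median over the tested genes of each list of the difference in mean log2(CPM + 1), Il1rl1 or Areg cells minus other cells, for all kept cells (open) and cells matched on genes detected (filled), with the median of all tested genes as dotted and dashed lines. In the matched cells the medians run from -0.10 for the EGF family to 1.22 for mitochondrially encoded genes, with Treg core at 1.10 and tissue repair at 0.97 beside 0.07 for all genes.

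Since edgeR called no gene, those named by smallest p among those of the same sign on every plate and counted in at least 25% of cells of the higher class are a description only. The 10 positive ones were Tnfrsf1b, Cish, Il7r and Nfkbia, given above, and Bbx, Actb, Chst11, Tuba1c, Sbf1 and Gem, with unadjusted p from 0.0236 to 0.149. Actb, cytoplasmic actin, had 0.59 ± 0.33 in the sums, but in paired cells its mean log2 difference was -0.33 ± 0.61 and its share was lower in the class on 3 plates and higher on none (-12.3 ± 9.59 percentage points). Bbx, an HMG-box factor, was counted in 26.6% against 5.69% of all kept cells and in 11.1%, 25.0%, 33.3% and 23.1% against 5.56%, 10.0%, 0% and 0% of the paired cells. The 10 negative ones were Smyd3, Dennd4a, Ankrd44, Tox, Lncpint, Exoc6b, Synj2, Pde1c, Maml2 and Slc9a9, with unadjusted p from 0.0134 to 0.11. Over all kept cells, Tox was counted in 65.8% of class cells against 48.8% of others, and Dennd4a in 83.5% against 67.5%. Smyd3, Ankrd44, Lncpint, Pde1c, Maml2 and Slc9a9 were also counted in a larger share of the class. Only Exoc6b and Synj2 had a smaller share, with 29.1% against 29.3% and 22.8% against 30.9%. Since shares and summed levels disagree, no order over all kept cells is read for the others. Over all kept cells DESeq2 called each gene of both directions except Nfkbia, Actb and Maml2. In paired cells it called only Tnfrsf1b, Bbx, Chst11, Sbf1, Exoc6b, Synj2 and Pde1c of them. Tox, a factor of T cell differentiation, had -1.50 ± 0.67 over all kept cells but 0.22 ± 1.22 in paired cells, and Dennd4a -0.90 ± 0.34 and -0.12 ± 0.45. Of the negative genes Exoc6b, a subunit of the exocyst, and Pde1c, a phosphodiesterase, were lower on 4 of 4 plates in paired cells on the mean log2 scale, with -1.11 ± 0.52 and -0.69 ± 0.41.

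Several of the negative genes span long stretches of the genome, and gene span moved with the fold change in general. With tested genes sorted by the length between their start and end, the median log2 fold change in the sums went from 0.19 in the shortest of 5 equal groups to -1.18 in the longest over all kept cells, and from 0.18 to -0.45 in paired cells. The median span in those groups was 3.82 and 197 kb over all kept cells. The part of gene span in the differences of single genes was not tested.

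Within the class, cells with both transcripts had the most genes detected, with a median of 1923 against 1583 for Areg alone and 1076.5 for Il1rl1 alone. Values of these subsets are therefore a description, over 17, 24 and 38 cells of 4 plates. Il7r was counted in 82.4% of cells with both, 33.3% with Areg alone and 34.2% with Il1rl1 alone, and Rora in 88.2%, 62.5% and 47.4%. Ikzf2 was counted in 50.0% of cells with Areg alone, close to the 48.8% of cells with neither, but in 84.2% of cells with Il1rl1 alone. Tnfrsf9 and Batf took the reverse order, with 75.0% and 50.0% for Areg alone and 42.1% and 21.1% for Il1rl1 alone. Klrg1 was counted in 31.6%, 33.3% and 23.5% of the cells with Il1rl1 alone, Areg alone and both, each above the 9.76% of cells with neither, and Lrrc32 in 23.7%, 12.5% and 17.6% beside 0.813%.

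Across treatments, the class of the imiquimod plates is described by its shares beside those of the vehicle plates, with no test of single genes beyond the one above. Il10 was counted in 43.5% of 23 class cells on imiquimod plates and 19.6% of 56 on vehicle plates, and Dusp1 in 82.6% and 62.5%. Il2ra was counted in 47.8% and 80.4%, Tcra in 43.5% and 89.3%, and Kit in 4.35% and 39.3%. Gata3 and Klrg1 were at 52.2% and 34.8% with imiquimod and 55.4% and 28.6% with vehicle. The median number of genes per class cell was lower on the imiquimod plates, as given above.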

How the data were processed

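Plate-based single-cell RNA-seq was given as whole-number read counts for 50556 gene symbols in 384 wells, deposited by the authors without normalization. Per the submitters' processing notes, Trimmomatic 0.39, STAR 2.7.3a, SAMtools 1.12 and mm39 were used. The counting tool, annotation and use of strand are not given in the sources used here. Per the labels' protocols, cDNA was amplified for 24 cycles and libraries for 12, and counts are of reads without molecular identifiers.

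Single-cell wells with at least 500 genes and 10000 counts were kept, and no doublet caller was run on the sorted wells. Counts were summed per class and plate, and tested in R 4.3.3 with edgeR 4.0.16 (filterByExpr, TMM scaling, quasi-likelihood test, plate as block, since both class sums come from the same plate), with Benjamini-Hochberg adjustment at 0.05. DESeq2 1.42.0 was run on the same sums, and limma 3.58.1 on the mean per cell of log2(CPM + 1), pseudocount 1. Cells were matched within a plate to at most 0.25 in log2 genes, or thinned to 400000 counts. Scripts were tested on simulated data, where at the fitted spread edgeR did not recover the changed genes, so that its count of 0 carries little information. Empty wells and wells of 10 cells were assigned to plates by the library numbers in their titles. All columns belonged to samples of the series.

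Named were 22 genes whatever their level, up to 3 per list, and 10 per direction with the same sign on every plate and counts in at least 25% of the cells of the higher class. Since edgeR called no gene, the places per direction went to the smallest p. The 18 lists of cell states and 17 of cell types, and the members, were chosen with earlier results of these data known.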

Additional observations from a re-analysis of the deposited data

Results flagged for a closer look

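In wells of 10 cells, which entered no comparison, Areg was counted in 16 of 16 wells and Il1rl1 in 14 of 16, while empty wells had Il1rl1 in 0 of 20 and Areg in 1 of 20. Among the 4 such wells put on imiquimod plate 1 by the library numbers in their titles, the lowest Areg level of 89.5 CPM stood apart from the others. Chance flags about 1 in 20 groups in this way. Il1rl1 also had single low wells of 10 cells. They were at 16.3 CPM beside 465 to 859 on vehicle plate 2, and at 0 beside 107 to 168 on imiquimod plate 1. The empty well with Areg held 819 counts of it.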

How the results depend on the processing

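The count of genes called by edgeR in the class against the other cells was 0 with the plate as block and 0 without the block, and the same 0 and 0 held in cells matched on genes detected. Leaving out each plate in turn gave 0 to 1 in all kept cells and 0 to 1 in matched cells, and 0 to 113 for the class by treatment test, where 1 treatment then has a single plate that is assumed to vary like the plates of the other. The gene called was Zswim4 in the first 2 cases, both without imiquimod plate 1. DESeq2 called 1291, 921 and 1833 genes in these 3 comparisons. On the mean log2(CPM + 1) scale limma called 2 of 8911 genes, 19 of 7217 after thinning, and none in matched cells. Without each plate in turn it called 0 to 22 over all kept cells. The thinned fit and these omissions were chosen after seeing the data. The difference in the share of the class between treatments was -25.2 percentage points after thinning. Among the 115 named genes, 4 had over all kept cells negative fold changes in the sums and positive, called differences in limma. These were Ikzf2 at 3.19 without imiquimod plate 1, COX1 at 3.08 and Vim at 2.94 after thinning, and Lmna at 3.15 after thinning and 3.36 without vehicle plate 2. The cause was not tested. The sign was unchanged under the settings run for 26 of 114 named genes over all kept cells and for 33 of 107 in matched cells.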
